A study of Chlorocebus sabaeus with 10 samples.

Results

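The genes of purine breakdown and uric acid handling were examined in liver biopsies of 10 female vervet monkeys, an Old World primate. The animals were all kept on chow beforehand and were then fed either the high fructose (HFr) diet (n = 5) or chow (n = 5) for 6 weeks. Diet is the only difference between the groups that the labels name, and no genotype or transgene is given. The study describes the animals as age-matched. It reports higher plasma cholesterol and higher blood measures of liver injury on the HFr diet, whose part in the results below was not tested. The study states that analgesics were provided during recovery as needed, without a split by diet. Each animal gave 1 library of polyadenylated RNA from bulk liver. The list held 10 genes, chosen by name: AMPD2, AMPD3, ADA, NT5C2, PNP, HPRT1, XDH, UOX, SLC2A9 and ABCG2. A row with the gene symbol was found for 8 of the 10 in the table of 28078 transcripts, each with a single annotated transcript. ADA and UOX were not analysed here.

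Purines are broken down in steps that meet at uric acid. AMP deaminases turn AMP into IMP, 5'-nucleotidases such as NT5C2 remove the phosphate, and purine nucleoside phosphorylase (PNP) releases the bases hypoxanthine and guanine. HPRT1 returns these bases to nucleotides, whereas xanthine dehydrogenase (XDH), a molybdenum enzyme abundant in liver, oxidises hypoxanthine to xanthine and xanthine to urate. Fructose is a known entry to this route, because its rapid phosphorylation in hepatocytes uses ATP and leaves AMP. Urate crosses cell membranes through transporters that include SLC2A9 and ABCG2, and in mammals other than apes it is degraded further by urate oxidase.

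Of the 8 genes found, XDH had the most reads, and its mean was higher on the HFr diet in a comparison that did not pass the test. AMPD2, the other well counted gene, varied more between animals of the same diet than between the diets. AMPD3 and NT5C2 had few reads and means within 1 SD of each other. PNP, HPRT1 and ABCG2 were detected in all 10 animals at counts too low for the test across all transcripts. SLC2A9 was listed at 0 in every animal.

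Total estimated counts ranged from 2977280 to 4992503 per animal, of which transcripts of the mitochondrial genome took 34.8% to 73.6%. This left 864557 to 2657093 counts on nuclear transcripts. Values below are normalized counts, which are estimated counts per 1000000 counts of a library (CPM), with library sizes adjusted by TMM, the trimmed mean of M-values. At this depth a single count was worth between 0.182 and 0.502 normalized counts, depending on the animal, so genes with fewer than 10 counts carry a large counting error. For the comparison of HFr with chow, edgeR's quasi-likelihood test was run on the 7948 transcripts that passed a filter on low counts. Called at an adjusted p under 0.05 were 0 of them (0%), against 2 transcripts with DESeq2 and 0 with limma, and an unadjusted p under 0.05 was reached by 341 (4.29%), with 164 (2.06%) higher and 177 (2.23%) lower on the HFr diet. Of the 8 genes, 4 passed the filter, namely XDH, AMPD2, AMPD3 and NT5C2. In edgeR, 0 of these 4 had an adjusted p under 0.05 and 0 had an unadjusted p under 0.05. With DESeq2 the number with an unadjusted p under 0.05 was 1 of 4, beside 330 of 7940 transcripts. With limma it was 0 of 4, beside 321 of 7948. The study's equal-variance test, run without this filter, gave 1 of 7 genes, beside 597 of 16105 transcripts. In both cases where there was 1 it was XDH. Groups that did not overlap were found for 43 transcripts (0.541%), 17 with HFr above chow (0.214%) and 26 with HFr below (0.327%), none of which belonged to the list.

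The libraries carried the markers of liver. Hepatocyte markers such as ALB summed to between 40916 and 61302 normalized counts on the HFr diet and between 35673 and 69837 on chow, with 7 of 7 detected. Of markers of other cells, 8 of 8 were detected for lymphocytes (15.4 to 26.9 on HFr, 16.3 to 20.9 on chow) and 4 of the 4 found for red blood cells (100.3 to 333 and 60.7 to 343). All 6 of the macrophage markers found were detected (309.7 to 454 and 289 to 446), as were 7 of 7 for endothelial cells (305 to 418 and 239.5 to 421). For cholangiocytes 4 of 4 found were detected (5.96 to 26.5 and 10.04 to 31.6), and for stellate cells and fibroblasts 6 of 6 (216 to 397 and 174 to 811). Skeletal muscle markers were detected for 3 of 5, with CKM and MYH2 at 0 (1.103 to 8.82 and 0.546 to 35.1). The ranges of the diets overlapped for each of the 8 lists, and the part of these cells in the results below was not tested. In bulk tissue, fewer cells of a type and less RNA per cell cannot be told apart.

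**Figure D1:**
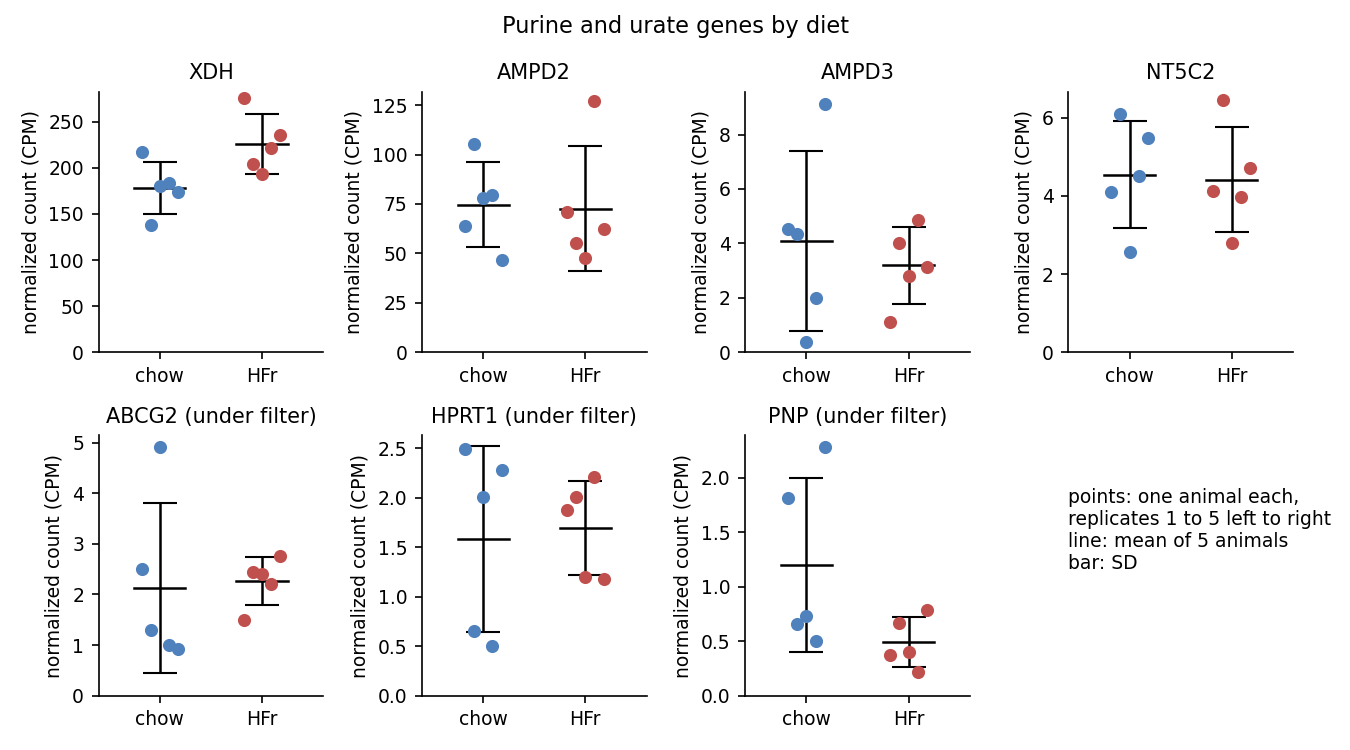
Normalized counts (CPM) of the 7 detected genes in each animal, with chow on the left and HFr on the right of each panel. Points are single animals, the horizontal line is the mean and the bar the SD of 5 animals. For XDH all 5 HFr animals lie above the chow mean of 178 but overlap with chow replicate 1 at 217, and the values of the diets also overlap for the other 6 genes.

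XDH lies on chromosome 14 of the assembly ChlSab1.1, on the plus strand from 76085368 to 76163937 (gene ENSCSAG00000011394). Its normalized counts on the HFr diet were 275 in replicate 1, 204 in replicate 2, 193 in replicate 3, 222 in replicate 4 and 236 in replicate 5. On chow they were 217, 138, 180, 183 and 174 in the same order of replicates. All 5 HFr animals were above the chow mean, and the groups overlapped only because chow replicate 1 stood above HFr replicates 2 and 3. The means were 226 ± 32.1 on the HFr diet and 178 ± 28.3 on chow (SD, n = 5 each), so the difference exceeded the SD within either diet. The log2 fold change was 0.34 (SE, the standard error, 0.18, 95% confidence interval -0.04 to 0.72, unadjusted p = 0.0778, adjusted p = 0.9996, edgeR). An exact permutation test of the normalized counts between the diets gave p = 0.0397 (two-sided, unadjusted), where the smallest possible value is 0.00794. XDH was thus near the threshold, on one side of it with edgeR and on the other with the permutation test. No fit placed it under 0.05 after adjustment over all transcripts. The permutation test was not run over all transcripts, so its p has no share of calls to be read against. The same permutation test gave p = 0.865 for AMPD2, 0.643 for AMPD3 and 0.905 for NT5C2.

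XDH was also the gene measured with the least noise. Its 365 to 1200 estimated counts per animal correspond to a counting error of 3.61%, and its coefficient of variation within a diet was 14.98%. Across all 10 animals its normalized counts spanned a 2.001-fold range. Single animals moved the size of the difference. Without HFr replicate 1, the highest HFr animal, the log2 fold change was 0.25, and without chow replicate 2, the lowest animal of all, it was 0.26 (unadjusted p = 0.210 and 0.186 from edgeR). Without chow replicate 1 it was 0.42 (unadjusted p = 0.0415, adjusted p = 0.995, against a range of 0.838 to 0.99999 over the 21 alternative fits).

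Among the tested transcripts with a gene name, those whose profile over the 10 animals was most like that of XDH were IQSEC1, SIRT2, ALDH3A2, RMDN3 and NOD1. Likeness was the mean absolute difference of the log2 normalized counts after centering each gene over the animals. It was 0.045 for IQSEC1 and lay between 0.12 and 0.13 for the other 4, against a median of 0.35 over all named transcripts. The likeness is a description over 10 animals that share libraries and scaling.

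AMP deaminase 2 (AMPD2), the AMP deaminase form known from liver, lies on the minus strand of chromosome 20 from 23913254 to 23926905 (ENSCSAG00000001552). On the HFr diet its normalized counts were 70.7, 55.0, 47.7, 127 and 62.3 in replicates 1 to 5. On chow they were 64.0, 105.5, 78.1, 79.3 and 46.6. HFr replicate 4 was the highest animal of all, chow replicate 2 was second, and the lowest animals of the diets were alike. The means were 72.6 ± 31.8 on HFr and 74.7 ± 21.7 on chow (SD, n = 5 each). The log2 fold change of -0.04 (SE 0.28, 95% confidence interval -0.63 to 0.55) had an unadjusted p of 0.883 from edgeR. Its sign rested on single animals, being -0.35 without HFr replicate 4 and 0.12 without chow replicate 2. The variation within a diet, 36.9%, was well above the counting error of 5.87% at 102 to 577 counts per animal.

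**Figure D2:**
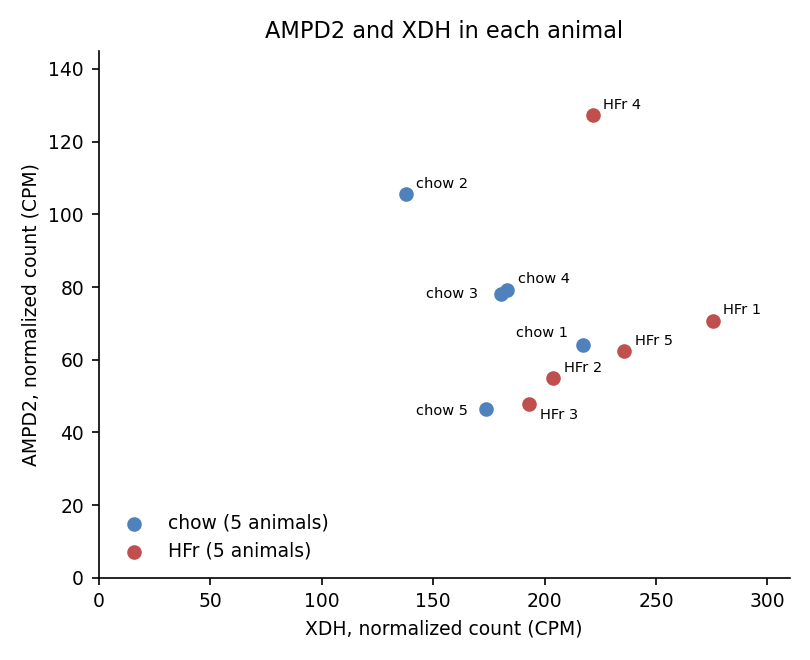
Normalized counts (CPM) of AMPD2 against XDH, with 1 point for each animal, colored by diet. HFr replicate 4 and chow replicate 2 have the highest AMPD2 values of their diets, at 127 and 105.5, and lie apart from the other HFr and chow animals.

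The ratio of AMPD2 to XDH within an animal does not depend on the scaling between libraries. It was added after the values were seen and is given without a test. On the log2 scale, with 1 count added to each gene, the ratio was -1.96, -1.89, -2.01, -0.80 and -1.92 in HFr replicates 1 to 5. On chow it was -1.76, -0.38, -1.20, -1.20 and -1.89. HFr replicates 1, 3 and 5 lay below the lowest chow animal, HFr replicate 2 was level with it, and HFr replicate 4 lay above 4 of the 5 chow animals. The means were -1.71 ± 0.51 on HFr and -1.29 ± 0.60 on chow (SD, n = 5 each), which differ by -0.42, less than either SD.

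AMPD3, the isoform known from red blood cells, lies on the minus strand of chromosome 1 from 54316334 to 54373620 (ENSCSAG00000004560). Normalized counts were 1.12, 4.01, 2.81, 4.85 and 3.14 on the HFr diet and 4.54, 4.35, 0.364, 2.01 and 9.13 on chow. Chow replicates 3 and 5 were the lowest and the highest animals of all, a 25.1-fold range inside the chow group. The means of 3.19 ± 1.40 and 4.08 ± 3.31 (SD, n = 5 each) gave a log2 fold change of -0.22 (SE 0.56, 95% confidence interval -1.43 to 0.99, edgeR unadjusted p = 0.699). It was 0.21 without chow replicate 5 and -0.58 without chow replicate 3. The gene had 2 to 22 counts per animal. Red blood cell markers summed to 100.7 normalized counts in chow replicate 3 and 343 in chow replicate 5, the lowest and highest animals for AMPD3. The order was not the same in all animals, with sums of 333 in HFr replicate 3 and 240 in HFr replicate 1 (AMPD3 2.81 and 1.12) and of 60.7, the lowest sum, in chow replicate 2 (AMPD3 4.35). Their part in the AMPD3 values was not tested.

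NT5C2, a cytosolic nucleotidase that prefers IMP and GMP, lies on the minus strand of chromosome 9 from 96135400 to 96219957 (ENSCSAG00000005380). Its normalized counts were 4.12, 6.46, 2.81, 3.97 and 4.72 on the HFr diet and 4.09, 6.09, 2.55, 4.52 and 5.48 on chow. The values of the diets interleaved over nearly the same range. The means were 4.41 ± 1.34 and 4.54 ± 1.36 (SD, n = 5 each), and the log2 fold change was 0.01 (SE 0.30, 95% confidence interval -0.63 to 0.65, edgeR unadjusted p = 0.975). The interval leaves room for a change of either sign of that size. With 7 to 29 counts per animal, the counting error of 24.3% came close to the variation within a diet of 30.2%.

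PNP, which splits inosine and guanosine, lies on the plus strand of chromosome 29 from 20993280 to 21001607 (ENSCSAG00000016658). It had 1, 3, 1, 1 and 4 counts in the HFr animals and 8, 3, 4, 1 and 5 in the chow animals. This is 10 counts over the HFr diet and 21 over chow, and chow replicates 1 and 5 held 13 of the latter between them. In normalized counts, the means were 0.490 ± 0.231 on HFr and 1.196 ± 0.800 on chow (SD, n = 5 each), and each HFr animal was under the mean of chow, although the groups overlapped. A two-sided exact permutation test gave p = 0.0873. In a fit to every transcript with reads, without the filter, the log2 fold change was -1.14 (SE 0.64, unadjusted p = 0.0898, adjusted p = 0.838, edgeR, 16066 transcripts, of which 756 had a unadjusted p under 0.05). A difference in PNP was thus not called, at 1 to 8 counts per animal.

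HPRT1, the salvage enzyme for hypoxanthine and guanine, lies on the plus strand of chromosome X from 109630112 to 109664986 (ENSCSAG00000007756). Its counts were 5, 9, 3, 10 and 6 on the HFr diet and 11, 3, 11, 1 and 5 on chow, which sum to 33 and 31. The normalized counts were 1.69 ± 0.474 and 1.59 ± 0.940 (SD, n = 5 each), with an exact permutation p of 0.802. Relative to XDH, its competitor for hypoxanthine, HPRT1 stood at a log2 ratio of counts of -6.86 ± 0.38 on HFr and -6.70 ± 0.67 on chow (SD, n = 5 each). This difference of -0.16 was smaller than the SD of either diet, and the two-sided exact permutation test gave p = 0.627. With 0.1 counts added in place of 1, the difference was -0.04 (exact permutation p = 0.921), and it lay between -0.37 and 0.016 with 1 animal left out, the latter without chow replicate 5. The ratios of UOX to XDH and of SLC2A9 to ABCG2 could not be computed.

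The urate transporters ABCG2 and SLC2A9 had few reads or none. ABCG2, an efflux pump of apical membranes, lies on the minus strand of chromosome 7 from 36459876 to 36599671 (ENSCSAG00000004301). It had 4, 11, 6, 10 and 14 counts on the HFr diet and 11, 6, 27, 2 and 2 on chow. Chow replicate 3 thus held 27 of the 48 chow counts, while the HFr animals summed to 45. Normalized counts were 2.26 ± 0.470 and 2.13 ± 1.68 (SD, n = 5 each), with an exact permutation p of 0.897, and the chow values spanned a 5.39-fold range against 1.84-fold on HFr. The table places 4 other annotated genes within the span of ABCG2, of which 1 had any reads (24 over all animals). SLC2A9, a membrane carrier of urate related to the glucose transporters, lies on the plus strand of chromosome 27 from 40035114 to 40223201 (ENSCSAG00000016298). It was listed at 0 counts in all 10 animals, which allows up to 0.0791 normalized counts over the 10 libraries together and between 0.546 and 1.51 in a single library, taking 3 counts as the limit that a count of 0 allows. These limits cover counting error only and hold for the annotated transcript. Whether that gene model covers the exons used in liver was not tested.

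Other genes of purine metabolism and urate transport were taken from 7 lists that hold 82 gene symbols, older and newer names included. Of these symbols 70 were found and 39 were tested. The log2 fold change was above 0 for 17 of the 39 and below 0 for 22, with a median of -0.05, against -0.000693 and 49.8% above 0 over all tested transcripts. With edgeR, 1 of the 39 had an unadjusted p under 0.05, beside 4.29% of all tested transcripts, and 0 had an adjusted p under 0.05. No gene of the lists had diets that did not overlap.

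**Figure D3:**
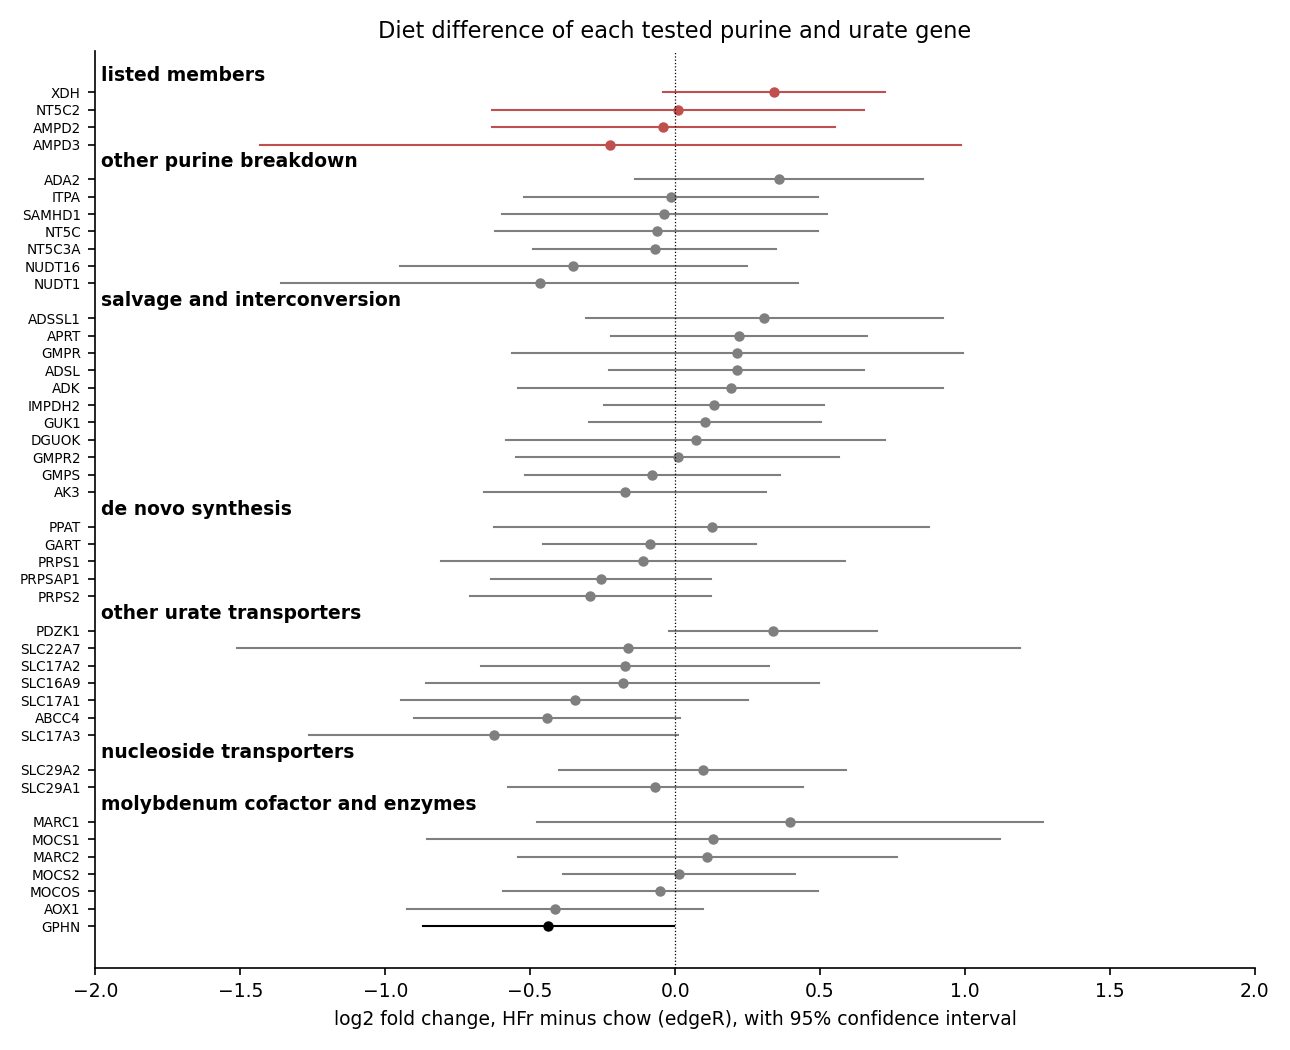
Log2 fold change (HFr minus chow, from edgeR) with its 95% confidence interval for the 4 tested members, in red, and the 39 tested genes of the pathway lists, in grey. GPHN, in black, is the gene with an interval that stays below 0, and the intervals of all the others include 0.

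The enzymes of salvage and of AMP, IMP and GMP interconversion were tested for 11 genes. Of these, 9 had a log2 fold change above 0 and 2 below, with a median of 0.13 and a range from -0.17 to 0.31, and none passed the test. ADSSL1, an adenylosuccinate synthase that leads from IMP back to AMP, had the largest log2 fold change of the list by size, at 33.7 ± 10.998 normalized counts on HFr and 26.8 ± 11.3 on chow (SD, n = 5 per diet, with a log2 fold change of 0.31, SE 0.29, edgeR unadjusted p = 0.301). It rested on single animals, being 0.16 without HFr replicate 1, 0.19 without chow replicate 1, 0.47 without HFr replicate 5 and 0.60 without chow replicate 2, the last with an unadjusted p of 0.0373 (adjusted p = 0.918, edgeR). For other enzymes of nucleotide breakdown, 7 genes were tested, with 1 above 0 and 6 below and a median of -0.06. ADA2, the secreted adenosine deaminase known from myeloid cells, was the one above 0, at 11.7 ± 2.61 and 9.22 ± 2.22 normalized counts (SD, n = 5 per diet, with a log2 fold change of 0.36, SE 0.23, edgeR unadjusted p = 0.145). De novo purine synthesis was tested for 5 genes, 1 above 0 and 4 below, with a median of -0.11. PRPS2, which makes phosphoribosyl pyrophosphate, had 11.4 ± 2.49 and 14.0 ± 1.75 normalized counts (SD, n = 5 per diet, with a log2 fold change of -0.29, SE 0.19, edgeR unadjusted p = 0.155). Without HFr replicate 2 it was -0.44 (unadjusted p = 0.0409, adjusted p = 0.998, edgeR).

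Of the other urate transporters and PDZK1, a scaffold that binds several of them, 7 of 14 were tested. The log2 fold change was below 0 for 6 and above 0 for PDZK1 alone, with a median of -0.18 and a range from -0.63 to 0.34. SLC17A3, a phosphate and urate carrier, had the smallest p of the list. Its normalized counts were 11.6, 5.12, 4.01, 10.2 and 11.8 on the HFr diet and 12.7, 10.007, 16.03, 10.5 and 17.3 on chow. All 5 HFr animals lay below the chow mean, and HFr replicates 2 and 3 lay apart from the rest at the low end. The log2 fold change was -0.63 (SE 0.30, 95% confidence interval -1.26 to 0.01, unadjusted p = 0.0534, adjusted p = 0.9996, edgeR). The unadjusted p was under 0.05 in 9 of the 21 alternative fits and over it in 12, and the sign was negative in all 21. Leaving out HFr replicate 1, 4 or 5 or chow replicate 2 or 4 brought it under 0.05. Of the nucleoside transporters 2 were tested, SLC29A1 and SLC29A2. SLC29A2 had 8.40 ± 0.860 and 7.70 ± 2.16 normalized counts (SD, n = 5 per diet, with a log2 fold change of 0.10, SE 0.23, edgeR unadjusted p = 0.685).

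XDH needs the molybdenum cofactor, and 7 genes for its synthesis or for other molybdenum enzymes were tested. There were 4 above 0 and 3 below, with a median of 0.01. GPHN, which encodes gephyrin, the protein that completes the cofactor and also anchors receptors at inhibitory synapses, was the one gene of the lists with an unadjusted p under 0.05. Its normalized counts were 35.9, 23.4, 30.9, 35.1 and 30.3 on the HFr diet and 25.4, 42.0, 46.5, 51.7 and 45.6 on chow. Chow replicate 1 lay among the HFr animals, and the other 4 chow animals lay above all of them. The means were 31.1 ± 4.99 and 42.2 ± 10.02 (SD, n = 5 each), with a log2 fold change of -0.44 (SE 0.20, 95% confidence interval -0.87 to -0.00444, unadjusted p = 0.0480, adjusted p = 0.9996, edgeR). The unadjusted p stayed under 0.05 in 8 of 21 alternative fits, and the adjusted p ranged from 0.838 to 0.99999 over them. With 1 animal left out it stayed under 0.05 without HFr replicate 1, HFr replicate 4 or chow replicate 1 and was over 0.05 without any of the other 7, at log2 fold changes between -0.58 and -0.35.

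Of the steps after urate, URAD and ALLC were found and neither was tested. URAD, which acts after urate oxidase, had 2, 20, 3, 9 and 14 counts on the HFr diet and 3, 6, 4, 3 and 1 on chow. This is 48 against 17 counts, and HFr replicates 2 and 5 held 34 of the 48. The normalized counts were 2.23 ± 1.46 on HFr and 0.935 ± 0.447 on chow (SD, n = 5 each), with HFr replicates 1 and 3 inside the chow range. A two-sided exact permutation test gave p = 0.0952. In a fit to every transcript with reads, without the filter, the log2 fold change was 1.32 (SE 0.54, unadjusted p = 0.0228, adjusted p = 0.838, edgeR). ALLC had 3 counts on each diet.

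**Figure D4:**
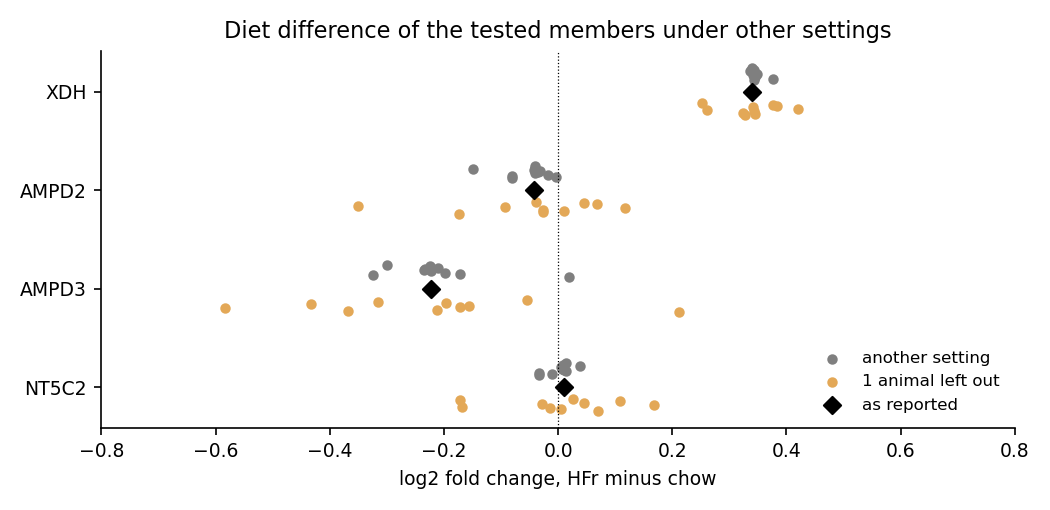
Log2 fold change (HFr minus chow) of the 4 tested members as reported (black diamonds), under the other settings that gave a value (grey points, up to 11) and with 1 animal left out (10 yellow points). XDH stays above 0 throughout, between 0.25 and 0.42, while AMPD2, AMPD3 and NT5C2 have points on both sides of 0.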

How the data were processed

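RNA-Seq of 10 liver biopsies, 5 from animals on the HFr diet and 5 on chow, was used. The authors sequenced pairs of 100 bases and aligned them to ChlSab1.1 with the Ensembl release 93 gene model. Estimated counts per transcript, before TMM, were deposited by the authors, who ran the expectation-maximization quantification of Partek Flow. The study describes this quantification as normalizing for the length of a transcript. STAR 2.5.3a and CASAVA 1.8 are named in the submitters' processing notes. The normalized signal was made by the authors with TMM after transcripts without reads were removed, and it served only for the study's equal-variance test.

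Each gene was represented by its transcript with the highest mean count. Estimated counts were rounded, filtered with filterByExpr (minimum count 10, minimum total 15) and tested with edgeR 4.0.16 (TMM, diet as the only term) in R 4.3.3, with Benjamini-Hochberg adjustment over all tested transcripts and a threshold of 0.05. Intervals for fold changes are at 95%. Single values were compared by two-sided exact permutation tests over animals. Alternatives used DESeq2 1.42.0, limma 3.58.1, other normalizations and filters, sums by gene, a mitochondrial covariate, a replicate block and each animal left out. The procedure was tested on simulated data.

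Named were all members, the 5 transcripts most like XDH, and from each pathway list the genes with an unadjusted p under 0.05, up to 3, or otherwise the 1 with the smallest p. The 8 marker lists are described by their summed level. The members and lists were chosen with earlier results of these data known. Replicate numbers name animals, and the labels do not say whether they pair them.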

Additional observations from a re-analysis of the deposited data

Results flagged for a closer look

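AMPD2 in HFr replicate 4, at 127 normalized counts (577 estimated counts), stood apart from the other 4 HFr animals, which lay between 47.7 and 70.7. Its gap to the nearest of them was 0.711 of the range of the HFr group, just over Dixon's 95% critical value of 0.71 for 5 samples. Of 26 groups of 5 animals examined this way, 1 was marked, and chance marks about 5% of groups.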

How the results depend on the processing

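The number of members with an adjusted p under 0.05 was 0 in each of the 21 alternative fits, as it was for the pathway lists. An unadjusted p under 0.05 was reached by 1 of 4 members with DESeq2 and 1 of 7 with the study's equal-variance test. With 1 animal left out it was reached by 0 to 1 of 4. For the pathway lists this number was 1 of 39 as reported, namely GPHN. It was 2 of 39 with DESeq2 (SLC17A3 and PDZK1) and 0 of 39 with library size only. Without a filter on low counts it was 2 of 66 (URAD and SLC17A3), and with the study's test 2 of 66 (NT5E and PDZK1). GPHN was thus not among the genes called in these fits. With 1 animal left out the number was 0 to 4 of 39 or 40. The 4 of 40 came without HFr replicate 4, where 337 of 8219 transcripts had an unadjusted p under 0.05. Over all tested transcripts an unadjusted p under 0.05 was reached by 341 of 7948 (4.29%) as reported, 330 of 7940 with DESeq2 and 124 of 7948 with library size only. With 1 animal left out it was reached by 261 to 408 transcripts, of 8065 to 8305 tested. It was reached by 756 of 16066 without a filter and 597 of 16105 with the study's test, both of which tested more transcripts. The study's test was rerun here on the authors' normalized values. The numbers of transcripts covered and called differ from those the study reports. Of the 597, 62.6% were higher on the HFr diet, against 164 of the 341. XDH kept its sign in all 21 fits, as did ADA2, ADSSL1, PRPS2, SLC17A3 and GPHN wherever they were tested. AMPD3 and NT5C2 gave no value when at least 10 counts were asked of every animal. NT5C2 changed sign with the replicate block (-0.033), the study's test (-0.0098) and limma (-0.033), and AMPD3 with limma (0.019). With 1 animal left out, NT5C2 ranged from -0.17 to 0.17, AMPD2 from -0.35 to 0.12, AMPD3 from -0.58 to 0.21, SLC29A2 from -0.029 to 0.23 (below 0 without chow replicate 5) and the HPRT1 to XDH ratio from -0.37 to 0.016 (above 0 without chow replicate 5). The cause was not tested. The labels do not say whether the same replicate number in both diets marks a pair. The correlations of same-numbered animals lay between -0.29 and 0.099, and 0 of 5 HFr animals correlated best with their own number. These values cannot decide it, because matched animals need not have correlated profiles. The replicate block gave 271 of 7948 transcripts an unadjusted p under 0.05. These included 0 of 4 members and 1 of 39 genes of the pathway lists, SLC17A3 in place of GPHN. The block left the HPRT1 to XDH difference at -0.16 (exact sign-flip p = 0.75). Counts under 10 in 5 or more animals limit PNP, HPRT1, ABCG2 and URAD.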

Other observations

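SLC22A7, an organic anion transporter of hepatocytes that also carries urate, was among the tested transporters (log2 fold change -0.16, edgeR unadjusted p = 0.801) and was singled out here after its values were seen. Its normalized counts were 96.2, 77.1, 119, 558 and 302 in HFr replicates 1 to 5 and 84.0, 684, 110.4, 307 and 105.9 in chow replicates 1 to 5. HFr replicate 4 and chow replicate 2 were the highest animals of their diets, and these were also the highest of their diets for AMPD2. The means of SLC22A7 were 231 ± 204 and 258 ± 254 (SD, n = 5 each), so the SD was close to the mean on both diets.

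AMPD1, the AMP deaminase known from skeletal muscle, had 8 counts in all on the HFr diet and 15 on chow. HFr replicate 1 held 7 of the former, and chow replicates 3 and 5 held 6 and 8 of the latter. The skeletal muscle markers summed to 35.1 normalized counts in chow replicate 5, 0.546 in chow replicate 3 and 1.87 in HFr replicate 1.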
